A study of Mus musculus with 12 samples.

Results

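Open chromatin was compared between SOX2+ and SOX2- tumour cells of mouse SHH medulloblastoma, using every library titled SOX2+ with no MKI67 label and every library titled SOX2-: 8 of the 12 libraries of the series, 4 in each group. The tumours came from Ptch1+/- mice with no treatment, a genotype and treatment that all groups share. Per the labels, cells were sorted live, with GFP marking the SOX2 sort, and equal numbers of GFP+ and GFP- cells were used. Another 4 libraries split SOX2+ cells with RFP into SOX2+/MKI67- (2 libraries) and SOX2+/MKI67+ (2 libraries), and they enter here only through the estimate of spread and as a description. The labels give neither the age of the mice nor how many tumours or animals the replicates came from, so p-values measure the spread between these libraries, which may be technical.

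Medulloblastoma is a tumour of the cerebellum, and its SHH form arises from granule neuron progenitors in which hedgehog signalling is switched on, here through loss of Ptch1, the hedgehog receptor that holds the pathway off. SOX2 is a transcription factor of neural stem and glial progenitor cells, and SOX2+ cells are known as a small, slowly cycling, stem-like population of these tumours, while the bulk resembles granule neuron progenitors and their neuron-like progeny. ATAC-seq cuts and tags DNA where it is not wrapped in nucleosomes, so that a peak is a stretch of open chromatin. Gene starts are open in most cells, whereas distal elements (enhancers and silencers away from gene starts) are the sites that most often differ between cell types.

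Each library is a list of peaks with no read counts, so sequencing depth is unknown and the length of a list stands in its place. The SOX2+ lists held 16788, 9377, 19636 and 25272 peaks in replicates 1 to 4, and the SOX2- lists 7009, 26206, 12660 and 21682. Both groups therefore contain short and long lists, and their lengths overlapped (exact permutation test, two-sided, p = 0.886, n = 4 per group). Counts were read at full length and again with every list cut to its 7009 strongest peaks, the length of the shortest. Sox2 carried 4, 1, 4 and 3 distal peaks in the SOX2+ libraries and 0 in all 4 SOX2- libraries. Olig2, a factor of oligodendrocyte progenitors, carried 3, 2, 3 and 3 against 0, 1, 1 and 1. Nhlh1, a factor of newly formed granule neurons, carried 0 distal peaks in every SOX2+ library against 0, 2, 1 and 1, and Reln, the secreted guidance protein reelin, carried 1, 0, 1 and 1 against 2, 8, 3 and 7. In limma's moderated test, with Benjamini-Hochberg adjustment over all genes, the adjusted p was 0.0144 for Sox2, 0.0177 for Olig2, 0.0414 for Nhlh1 and 0.00113 for Reln. At equal list length Olig2 (mean 1.5 against 0, limma adjusted p = 0.00078) and Reln (0 against 1.5, 0.0406) passed, Sox2 did not (0.5 against 0, 0.197), and Nhlh1 had 0 distal peaks in both groups. Over all peaks Sox2 passed there (1.5 against 0, limma adjusted p = 0.000495). With each of the 12 libraries left out in turn, the full-length distal call held in 12 of 12 fits for Reln, 10 for Olig2 (lost without SOX2- replicate 2 or SOX2+ replicate 1), 8 for Sox2 (lost without SOX2- replicate 2 or 4 or SOX2+ replicate 1 or 4) and 2 for Nhlh1 (without SOX2- replicate 1 or SOX2+ replicate 2).

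Markers of other cells that a sort could hold were also counted. Over 12 microglia and macrophage markers the summed number of peaks was 2 to 8 in SOX2+ libraries and 0 to 4 in SOX2- libraries, or 1.53 to 3.17 against 0 to 1.53 per 10000 peaks (exact permutation test, two-sided, p = 0.0286, n = 4 per group). Per 10000 peaks the groups did not overlap (lowest SOX2+ value 1.528, highest SOX2- value 1.526). The p is the smallest that 4 against 4 libraries can give. Only 5 of the 12 had a peak in any library, so the sums rest on these 5, and no member passed the test. The other 7, Csf1r, Cx3cr1, Aif1, Itgam, Tyrobp, C1qa and C1qb, were at 0 in both groups. Endothelial and mural markers (11 of 12 with a peak, 4 to 17 peaks against 2 to 20), meningeal fibroblast markers (7 of 8, 0 to 14 in both groups) and ependymal markers (7 of 8, 6 to 12 against 3 to 15) overlapped between the groups, and no member of these lists passed the test. Their part in the results below was not tested.

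The first question was where the regions lie that one group had and the other lacked. Peaks of all 12 libraries merged into 44242 regions. A region was called exclusive to a group when at least 3 of its 4 libraries listed it and 0 of the 4 libraries of the other group did. SOX2+ libraries had 1814 such regions (4.1% of all) and SOX2- libraries 680 (1.54%). Most lay away from gene ends. Distal regions, with a midpoint more than 1 kb from both ends of every protein-coding gene, made up 89.3% of the SOX2+ exclusive regions (1619) and 93.1% of the SOX2- exclusive regions (633), against 72.7% of all regions and 17.5% of the 5444 regions listed in all 8 libraries. SOX2+ exclusive regions lay inside a gene in 52.0% of cases, against 44.0% for SOX2- and 38.5% for all regions. Regions over 100 kb from any protein-coding gene, here called gene deserts, held 10.7% of the SOX2+ exclusive regions, 18.2% of the SOX2- exclusive regions and 9.84% of all regions. The rule can only select regions that are absent from some lists, and 82.5% of the regions listed in all 8 libraries lie at gene ends, so these shares are a description. With 1 library left out the rule itself changes, to 3 of 3 in its own group and to 0 of 3 in the other, so the counts move by construction as well as with the library. Without SOX2+ replicate 1, 3 or 4 the SOX2+ count was 761, 802 or 711, and its highest value was 2382, without SOX2- replicate 2. Without SOX2- replicate 2, 3 or 4 the SOX2- count was 70, 120 or 71, and without SOX2+ replicate 3 it was 1136.

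**Figure D1:**
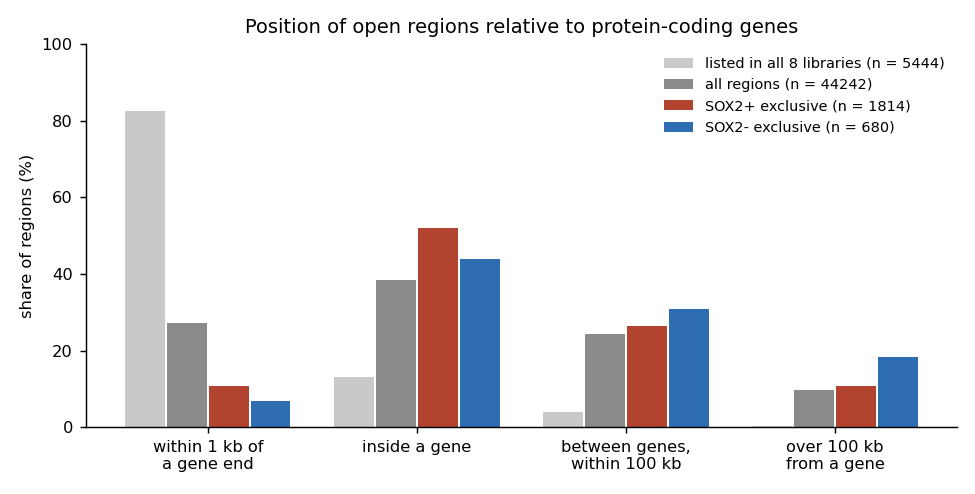
Share of regions (percent, vertical axis) by position relative to protein-coding genes, for regions listed in all 8 libraries, all merged regions, and regions exclusive to SOX2+ or SOX2- libraries. Of the regions listed in all 8 libraries 82.5% lie within 1 kb of a gene end, against 10.7% of the SOX2+ exclusive and 6.91% of the SOX2- exclusive regions.

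Shares of peaks per library were tested at equal list length. Peaks inside a gene made up 18.4% ± 0.330 (SD, n = 4) of the SOX2+ lists and 16.9% ± 1.10 (SD, n = 4) of the SOX2- lists. The groups did not overlap (18.2 to 18.9% against 15.95 to 17.9%), with an exact two-sided permutation p of 0.0286, the smallest that 4 against 4 libraries can give, and 0.114 after adjustment over the 4 shares tested. Distal peaks as a whole made up 29.1% ± 1.15 and 28.1% ± 3.30 (SD, n = 4 each; exact permutation p = 0.571). Gene-desert peaks made up 2.47% ± 0.889 and 3.44% ± 1.12 (SD, n = 4 each; exact permutation p = 0.171). None of the 4 shares passed after adjustment. A share at the smallest possible p cannot pass it alone, so for peaks inside a gene the adjusted value decides nothing.

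With every list cut to 7009 peaks, 13029 regions were left, of which 664 (5.1%) were SOX2+ exclusive and 393 (3.02%) SOX2- exclusive. Of the 664, 317 (47.7%) were also absent from all 4 full SOX2- lists. Of the 393, 46 (11.7%) were absent from all 4 full SOX2+ lists, and 50 were listed further down in all 4 of them. The cut removed no peaks from SOX2- replicate 1, so no region could be listed further down in all 4 SOX2- lists. The 47.7% and 11.7% are thus not alike and are not compared. At full length the SOX2- exclusive set leaned on the longer lists: SOX2- replicate 1, the shortest, listed 121 of the 680 (17.8%), and replicates 2, 3 and 4 listed 680, 630 and 679. In the SOX2+ exclusive set replicate 2, the shortest of its group, listed 852 of 1814 (47.0%).

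The libraries sorted on MKI67, a nuclear protein of cycling cells, were in no rule for these regions and show where the regions occur within SOX2+ cells. SOX2+ exclusive regions were listed in 1596 (88.0%) and 1581 (87.2%) cases in the SOX2+/MKI67- libraries, and in 1278 (70.5%) and 1665 (91.8%) cases in the SOX2+/MKI67+ libraries. Of these regions, 1120 (61.7%) were in all 4 MKI67-sorted libraries. The share was 28.1% for all regions, which need not recur between libraries, and 99.1% for the 5444 regions listed in all 8 libraries. Neither set is matched to the exclusive regions in how many libraries list them, so these shares are a description and are not compared. SOX2- exclusive regions were different: the SOX2+/MKI67- libraries listed 11 (1.62%) and 3 (0.441%) of the 680, whereas the SOX2+/MKI67+ libraries listed 202 (29.7%) and 246 (36.2%). The pattern held at equal list length, where the SOX2+/MKI67- libraries listed 13 and 14 of the 393 SOX2- exclusive regions (3.31% and 3.56%) and the SOX2+/MKI67+ libraries 73 and 53 (18.6% and 13.5%). Of the 664 SOX2+ exclusive regions at equal list length, the SOX2+/MKI67- libraries listed 80.4% and 80.0% and the SOX2+/MKI67+ libraries 57.5% and 65.7%. The full MKI67- lists held 19229 and 17615 peaks and the MKI67+ lists 18738 and 24694. With 2 libraries a group these differences were not tested.

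**Figure D2:**
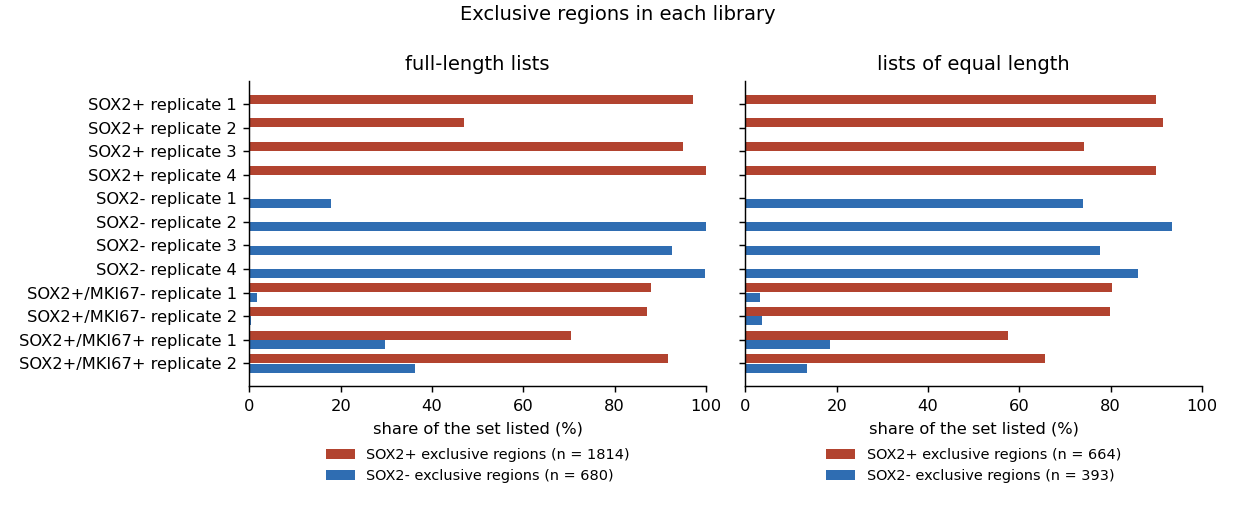
Share of the SOX2+ exclusive (red) and SOX2- exclusive (blue) regions listed in each of the 12 libraries (percent, horizontal axis), at full length on the left and with equal list length on the right. The values in the SOX2+ and SOX2- libraries follow from the rule, whereas those in the 4 MKI67-sorted libraries do not: SOX2- exclusive regions appear there in 1.62% and 0.441% of cases for MKI67- and 29.7% and 36.2% for MKI67+.

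Regions listed in all 4 libraries of one group and 0 of the other numbered 711 for SOX2+ (1.61% of all regions) and 70 for SOX2- (0.158%), of which 661 and 63 were distal. The 8 distal ones of each group that stood highest in their own lists are given with their rank by −log10 q, where 1 is the strongest peak. The highest for SOX2+ was chr2:150643830-150644559 (build mm10), inside Acss1, a mitochondrial enzyme that makes acetyl-CoA from acetate. It ranked 266, 273, 458 and 397 in the SOX2+ libraries and was absent from all 4 SOX2- libraries. All 4 ranks lay in the top 2.91% of their lists. Next came chr8:4369796-4370500, 10.1 kb from Ccl25, a chemokine gene, with ranks 933, 574, 1319 and 405. A region inside Kcnj10, the potassium channel of astrocytes and oligodendrocytes, at chr1:172349851-172350497, ranked 1855, 1598, 1749 and 843. The other 5 were at Ccdc34, Traf3ip2 (an adaptor of interleukin-17 signalling), Brinp1, Tafa5 (a secreted brain protein) and Cfap20 (a ciliary protein). All 8 were listed in all 4 MKI67-sorted libraries and within the top 7009 of all 4 SOX2+ libraries, and their mean rank was the top 2.10 to 10.3% of the list.

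The 8 highest SOX2- regions, taken from 63 rather than 661, had mean ranks of 23.6 to 34.7% in lists of other lengths, and the ranks of the 2 groups are not compared. Over the whole sets, 43.0% of the 661 and 46.0% of the 63 were within the top 7009 of at least 3 libraries of their group. The list of SOX2- replicate 1 is 7009 peaks long, so every region in it counts as within its top 7009. These 2 shares are therefore not compared either. The first SOX2- region, chr18:76185509-76186309, lay 37.3 kb from Zbtb7c, a zinc-finger repressor, and ranked 1661, 1057, 5133 and 5707 in SOX2- replicates 1 to 4. A gene-desert region at chr16:95119220-95119739, 122 kb from Kcnj6, a potassium channel gated by G proteins in cerebellar and other neurons, ranked 1551, 1187, 8145 and 5745. A region inside Git2, a GTPase-activating protein of ARF, at chr5:114753348-114753768, ranked 4817, 2968, 1622 and 5787, and it was in 0 of the 4 MKI67-sorted lists, as was the region 65.0 kb from Hspa9, a mitochondrial chaperone. The other 4 were at Eps8l3, Cdk15, Trhde (an enzyme that degrades thyrotropin-releasing hormone) and 2810006K23Rik. Of the 8, 5 were listed in both SOX2+/MKI67+ libraries and 1, at Zbtb7c, in 1 of them. None was listed in a SOX2+/MKI67- library.

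Gene-desert regions of the strictest kind were looked up after the distal results were known. For SOX2+ the highest were 153 kb from Tmem161b (chr13:84448832-84449831), 110 kb from Nr4a2, an orphan nuclear receptor, and 336 kb from Clnk, each in all 4 MKI67-sorted libraries. For SOX2- they were the regions near Kcnj6 and Trhde, then 102 kb from Olig3, a bHLH factor of the embryonic rhombic lip (chr10:19460140-19460614), 180 kb from Map3k1 and 217 kb from Mki67 itself (chr7:135932681-135933315). The regions nearest Olig3 and Mki67 were in 0 of the 4 MKI67-sorted lists. A nearest gene at such distances is only a landmark.

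Exclusive distal regions also came in runs, defined as 2 or more with gaps of at most 50 kb. Runs held 315 of the 1619 SOX2+ regions (19.5%) and 35 of the 633 SOX2- regions (5.53%), and a larger set forms more runs at the same spread along the genome. The longest SOX2+ run had 5 regions over 123 kb at Olig2 and Olig1. Runs of 4 lay at Vwa2 and Afap1l2 (100 kb), at Prex1, a RAC exchange factor (62.4 kb), at Xylt1, which starts glycosaminoglycan chains (59.6 kb), and at Ets1, a transcription factor (96.9 kb). The longest SOX2- run had 3 regions over 20.5 kb at Opa1, which fuses mitochondrial inner membranes. SOX2- pairs included those at Nhlh1 and Copa, at Ank3, at Lhx1, at Otx2, at Cacng2, at Klhl29, and at Rdh5 and Itga7. These runs were looked for after the distal results were known.

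Each distal region within 100 kb was assigned to its nearest protein-coding gene. Of 9725 genes with any distal region, 1189 (12.2%) had a SOX2+ exclusive one and 478 (4.92%) a SOX2- exclusive one, and 99 genes had both kinds. Nckap5 and Prex1 had 5 SOX2+ exclusive regions each and 0 of the other kind, and Ets1 and Xylt1 had 4 each. Svil, an actin-binding protein, had 5 SOX2+ and 1 SOX2- exclusive region. Opa1 and Reln had 3 SOX2- exclusive regions each and 0 SOX2+ exclusive ones. Genes with 2 SOX2- and 0 SOX2+ exclusive regions included Ank3 and Dab1 (an anchor of the axon initial segment and the adaptor of reelin signalling), Cacng2 (an AMPA receptor partner), Lhx1, and Nfia. Olig2 had 2 SOX2+ exclusive distal regions and 1 SOX2- exclusive one, at chr16:91202895-91203314, 22.4 kb from the gene and in 0 of the 4 MKI67-sorted lists.

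Genes were then tested for their number of distal peaks, on log2(peaks + 1) with the length of the list as a covariate. SOX2+ libraries had more distal peaks at 204 of 8069 genes (2.53%) and fewer at 109 (1.35%) at an adjusted p under 0.05. The same test on all peaks called 181 of 12541 genes higher (1.44%) and 52 lower (0.415%), and 128 of the higher and 36 of the lower calls were shared between the tests. The 2 groups of libraries did not overlap at 167 of the 313 genes called in either direction (3.88% of those tested), and at 177 of all genes tested (2.19%). With lists of equal length 252 of 2643 genes were called higher (9.53%) and 153 lower (5.79%), of which 64 and 14 were among the calls at full length. At 58 of the 313 no group had any spread, so that their p rests wholly on the spread of other genes. With 1 library left out, the number of genes higher ranged from 122 (without SOX2+ replicate 1) to 344 (without SOX2+ replicate 2), and the number lower from 16 to 455 (the same libraries). With libraries of the same replicate number taken as a block, 0 genes passed in either direction, so every gene call below rests on leaving the numbers unpaired.

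Tmed10, a cargo receptor of the early secretory pathway, carried 2 distal peaks in every SOX2+ library and 0 in every SOX2- library (log2 difference 1.58 ± 0.105 SE, limma adjusted p = 0.000715). Both lay inside the gene, at chr12:85350722-85351244 and chr12:85366112-85366691, and both were in all 4 MKI67-sorted libraries. The Tmed10 count did not vary within either group, so its SE and p rest on the spread of other libraries and genes. Rnf144a, a ubiquitin ligase, carried 3, 2, 2 and 4 distal peaks in SOX2+ replicates 1 to 4 against 0 in every SOX2- library (1.85 ± 0.191). Its 3 exclusive regions all lay inside the gene, the strongest at chr12:26394771-26395633. Limma's adjusted p was 0.00113 for Rnf144a, a value shared with the genes that follow because of ties.

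Fa2h, which hydroxylates the fatty acids of myelin lipids, and Cdk8, the kinase of the Mediator complex, each carried 2 distal peaks in every SOX2+ library and 0 in every SOX2- library. Ak5, an adenylate kinase of brain, Arap1, a GTPase-activating protein of ARF, Papss1, which makes the sulfate donor of sulfated glycans and lipids, and 4930432M17Rik each carried 2, 1, 2 and 2 against 0. AI429214 carried 1 in every SOX2+ library against 0, and stands for a tie of many genes at the same adjusted p. At equal list length Rnf144a, Fa2h and Papss1 still passed limma's test, with adjusted p of 0.000944, 0.0406 and 0.00978. Tmed10, Cdk8, Arap1, 4930432M17Rik and AI429214 kept the direction without passing, and Ak5 had 0 peaks in the shortened lists. In the MKI67-sorted libraries these 9 genes had at least 1 distal peak in every library.

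Among the genes with fewer distal peaks in SOX2+ libraries, Lhx1, a LIM homeobox factor of cerebellar neurons such as Purkinje cells, carried 0 distal peaks in every SOX2+ library against 1, 5, 2 and 5 in SOX2- replicates 1 to 4 (log2 difference -2.04 ± 0.227 SE, limma adjusted p = 0.00113). Tmtc1, which adds mannose to cadherins, carried 0 against 1, 4, 3 and 3 (-1.89 ± 0.193). Cacng2, which anchors AMPA receptors at synapses, carried 0 against 1, 4, 2 and 4 (-1.88 ± 0.195). In all 3 genes the SOX2- count was lowest in replicate 1, the shortest list, and highest or tied for highest in replicate 2, the longest, and the groups did not overlap. Both exclusive Cacng2 regions lay inside the gene, at chr15:78036570-78037043 and chr15:78078701-78079278, and neither was in any MKI67-sorted library.

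Reln had 3 exclusive regions inside the gene, of which chr5:22093134-22093743 was in 4 of 4 SOX2- libraries and 0 of the 4 MKI67-sorted ones. Trmt44, a tRNA methyltransferase, carried 0 against 1, 2, 1 and 2. Hs3st4, which sulfates heparan chains, carried 0 against 1, 4, 1 and 2, and Sphkap, an anchoring protein that binds sphingosine kinase, 0 against 1, 3, 1 and 1. 9230019H11Rik, Cdk15 and Aldoart1, a retrogene copy of aldolase, completed the 10, and limma's adjusted p over the 10 was 0.00113 to 0.0114. At equal list length Tmtc1, Reln, Trmt44, Cdk15 and Sphkap passed the test, Lhx1, Aldoart1 and Hs3st4 kept the direction without passing, and Cacng2 and 9230019H11Rik were in too few lists to be tested. For Cacng2 the direction over all peaks turned there, with means of 1.00 in SOX2+ and 0.750 in SOX2- lists.

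**Figure D3:**
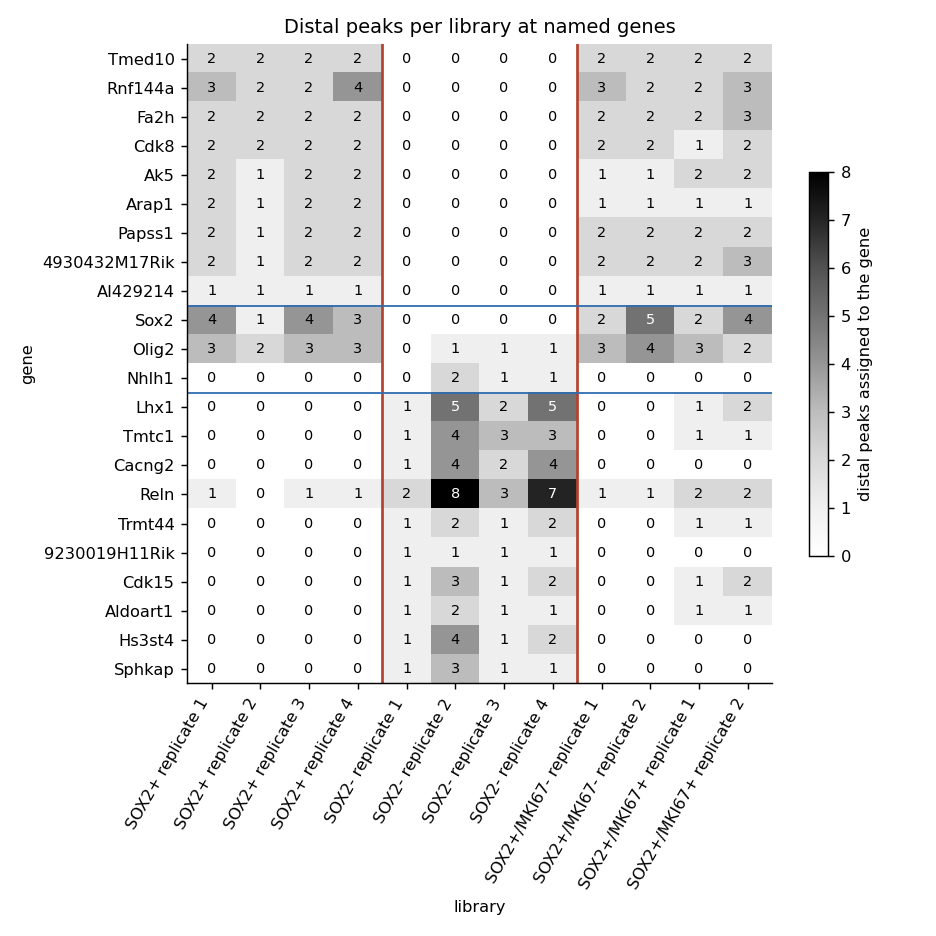
Number of distal peaks (written in each cell, and shaded from 0 to 8) at 9 genes with more distal peaks in SOX2+ libraries, the markers Sox2, Olig2 and Nhlh1, and 10 genes with fewer, in the 12 libraries. The upper 9 genes are at 0 in all 4 SOX2- libraries, and 9 of the lower 10 are at 0 in all 4 SOX2+ libraries, the exception being Reln.

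Gene families were read from lists of gene symbols, set against 5.12% of distal regions being SOX2+ exclusive and 1.83% SOX2- exclusive over all genes. Counts of members that passed are at full list length unless stated, and are read against 2.53% of all genes passing as higher and 1.35% as lower in the distal fit. At equal list length 9.53% of all genes passed as higher and 5.79% as lower, and fewer members were tested. For calls that did not hold in all 12 fits with 1 library left out, the number that held is given. It says nothing of equal list length. The DOCK exchange factors, which switch on RAC and CDC42, had 5 SOX2+ exclusive regions and 1 SOX2- exclusive one among 39 distal regions. Dock10 carried 3, 3, 3 and 4 distal peaks in the SOX2+ libraries against 0, 2, 0 and 1 (log2 difference 1.34 ± 0.225 SE, limma adjusted p = 0.0127), a call that held in all 12. Dock5 carried 0 in every SOX2+ library against 0, 2, 1 and 1 (-0.97, limma adjusted p = 0.0414), and its call held in 2 of 12, without SOX2- replicate 1 or SOX2+ replicate 2. Longer genes can hold more distal regions, and gene length was not part of the fit.

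Genes of fatty acid and sphingolipid handling had 10 SOX2+ exclusive regions among 63 (15.9%), at 7 genes, and 2 SOX2- exclusive ones (3.17%). In the distal fit 3 of 24 tested members (12.5%, against 2.53% of all genes) passed with more peaks and 0 with fewer (1.35% of all genes), with a median log2 difference of 0.15, against -0.02 over all genes. They were Fa2h, described above, Fads6, a desaturase, with 1, 1, 1 and 2 distal peaks against 0 (limma adjusted p = 0.0199, held in 10 of 12, lost without SOX2- replicate 2 or 4), and Ugt8a, which makes the myelin lipid galactosylceramide, with 2 in every SOX2+ library against 1 in every SOX2- library (limma adjusted p = 0.0331, held in 4 of 12). Ugt8a also had 1 SOX2- exclusive region beside its 2 SOX2+ exclusive ones. At equal list length 2 of 10 tested members of the family passed with more distal peaks and 0 with fewer. Elovl6, Fads2, Acsl3 and Degs1, enzymes that lengthen, desaturate or activate fatty acids, held the other exclusive SOX2+ regions. Fabp7, the fatty acid binding protein of radial glia, had 1 peak in every SOX2+ library and 0 in every SOX2- library over all peaks.

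Solute carriers, transporters of ions and small molecules, were the largest family, with 39 SOX2+ exclusive regions (6.36% of 613) at 31 genes and 17 SOX2- exclusive ones (2.77%) at 16 genes. Of 198 members tested for distal peaks 9 passed with more and 2 with fewer, where 2.53% and 1.35% of all genes did, and the median difference was -0.04, close to that of all genes. At equal list length 4 of 51 passed with more and 1 with fewer. Slc35f1 carried 5, 3, 3 and 5 distal peaks against 1 in every SOX2- library (1.27 ± 0.176, limma adjusted p = 0.00442). Slc1a6, the glutamate transporter EAAT4, carried 3, 2, 3 and 3 peaks of any kind against 0, 1, 0 and 1 (limma adjusted p = 0.00573). SOX2+ exclusive regions lay at 4 further glutamate or neutral amino acid transporters of the same family, Slc1a1, Slc1a2, Slc1a3 (2 regions) and Slc1a4, and at the GABA and glycine transporters Slc6a11 and Slc6a9. SOX2- exclusive regions lay at Slc17a6 and Slc32a1, which load glutamate and GABA into synaptic vesicles, and at Slc6a2, the noradrenaline transporter. SOX2+ exclusive regions also lay in Slc18a2, which loads monoamines into vesicles, and in Slc12a5, the chloride exporter of neurons, each in 3 of 4 SOX2+ libraries. These carriers were named after their values were seen and are not all of the 31 and 16 genes. ABC transporters had 6 SOX2+ exclusive regions among 59 and 0 SOX2- exclusive ones, and Abcc4, an exporter of nucleotides and prostaglandins, carried 6, 4, 7 and 9 distal peaks against 0, 6, 2 and 5 (0.93 ± 0.212, limma adjusted p = 0.0466, held in 2 of 12).

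**Figure D4:**
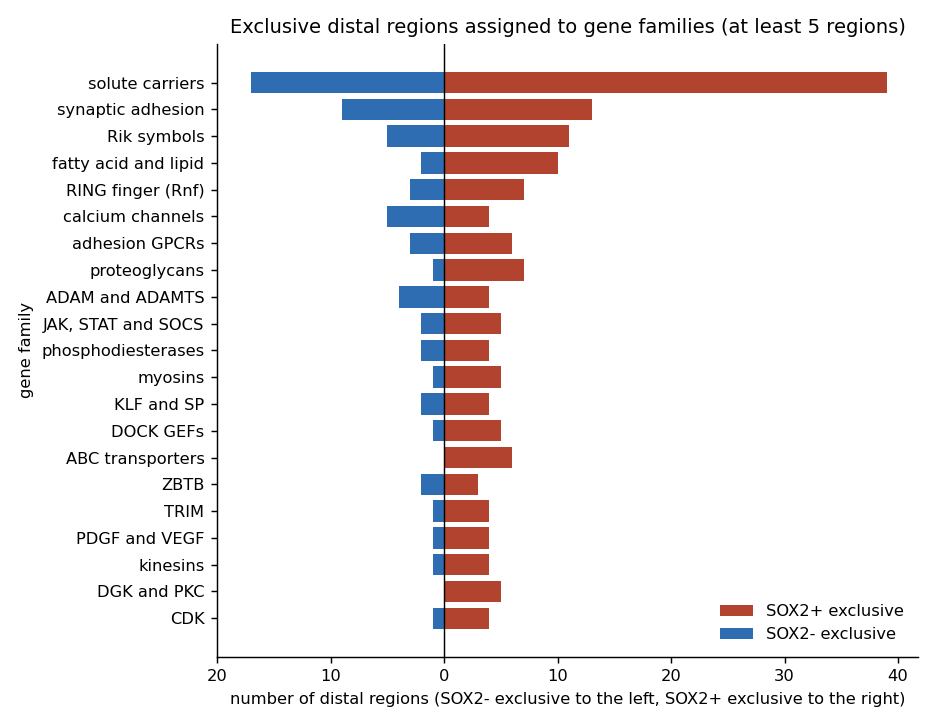
Number of distal regions exclusive to SOX2+ libraries (right, red) or SOX2- libraries (left, blue) for gene families with at least 5 such regions in all. The solute carriers have 39 on the right and 17 on the left, and the calcium channel subunits have 4 and 5.

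Voltage-gated calcium channel subunits and their relatives had 4 SOX2+ exclusive regions (2.99% of 134) and 5 SOX2- exclusive ones (3.73%). Cacng4 carried 2, 2, 3 and 6 distal peaks in SOX2+ replicates 1 to 4 against 0, 2, 0 and 0 (1.49 ± 0.342, limma adjusted p = 0.0471, held in 2 of 12), while its relative Cacng2 differed in the opposite direction. Cacna2d1, a subunit that brings channels to the membrane, carried 2, 0, 4 and 3 peaks of any kind against 1, 10, 4 and 9 (-1.28 ± 0.227, limma adjusted p = 0.0228, held in 5 of 12), and its groups overlapped. Synaptic adhesion genes had 13 SOX2+ exclusive regions and 9 SOX2- exclusive ones among 236 (5.51% and 3.81%), and sodium channel subunits had 0 of either kind among 21. Tenm4 and Tenm2, teneurins, had unlike counts, with 3 SOX2+ and 1 SOX2- exclusive region at Tenm4 and 0 and 2 at Tenm2.

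In the receptor and ligand families 0 to 2 members each passed in the distal fit, out of 6 to 18 tested. Among tested members 0 of 18 adhesion receptors, 0 of 8 PDGF and VEGF genes and 0 of 15 ephrins and Eph receptors passed. At equal list length 1 of 6, 1 of 4 and 1 of 6 passed, as higher, lower and higher in that order. S1pr2, a receptor of sphingosine-1-phosphate, carried 1 distal peak in every SOX2+ library and 0 in every SOX2- library (limma adjusted p = 0.00113). It was the only one of 6 tested lysophospholipid receptors to pass (16.7%, against 2.53% of all genes passing as higher). At equal list length 0 of 2 tested passed for distal peaks and 0 of 3 over all peaks. Among 16 tested FGF ligands and receptors 2 passed, both as higher (12.5%). At equal list length 0 of 4 tested passed as higher and 1 as lower. Fgfrl1, a decoy-like FGF receptor, carried 2 distal peaks in every SOX2+ library against 0, 1, 0 and 1 (1.02 ± 0.191, limma adjusted p = 0.0232, lost only without SOX2+ replicate 1). Fgf12, an intracellular FGF that binds sodium channels, carried 3, 1, 4 and 7 against 0, 3, 1 and 2 (0.76 ± 0.154, limma adjusted p = 0.0306, held in 4 of 12), and its groups overlapped. Tgfa, a ligand of the EGF receptor, carried 2, 1, 1 and 3 against 0 (1.36 ± 0.271, limma adjusted p = 0.0299, held in 7 of 12). It was the only one of 11 tested EGF-family ligands and receptors to pass (9.09%). At equal list length 1 of 4 tested members of that family passed, as higher. Among inhibitors of cytokine signalling Socs6 carried 0 in every SOX2+ library against 0, 1, 1 and 1 (-0.80 ± 0.183, limma adjusted p = 0.0466), a call that held in 2 of 12, without SOX2- replicate 1 or SOX2+ replicate 2. Prdm16, a factor of neural stem cell maintenance, carried 4, 3, 3 and 6 against 0, 2, 0 and 2 (1.36 ± 0.269, limma adjusted p = 0.0294, held in 6 of 12).

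Enzymes and matrix genes were split. Aldh1l1, the folate enzyme that marks astrocytes, carried 1, 1, 4 and 2 distal peaks against 0 (1.45 ± 0.318, limma adjusted p = 0.0442), and the call held in 3 of 12. Cyp2j9, a cytochrome P450 of brain, and Mmp16, a membrane-bound matrix protease, each carried 1 in every SOX2+ library and 0 in every SOX2- library. Mmp24 and Mmp28, other matrix proteases, were at 0 in every SOX2+ library against 0, 3, 1 and 1 and 0, 1, 1 and 1, and both passed as lower (limma adjusted p = 0.0496 and 0.0466), each call holding in 2 of 12. Proteoglycan cores and link proteins had 7 SOX2+ exclusive regions (9.09% of 77), 3 of them at Cspg4, the NG2 proteoglycan of oligodendrocyte progenitors, and 1 SOX2- exclusive region, at Gpc4, but 0 of the 18 tested members passed in the distal fit in either direction, Cspg4 among them (limma adjusted p = 0.118), and their median log2 difference was 0.06. At equal list length 0 of 5 tested proteoglycan genes passed. Of 12 tested cyclin-dependent kinases and relatives, 2 passed as higher, Cdk8 and Cdkl3, and 2 as lower, Cdk6 and Cdk15, where 2.53% and 1.35% of all genes did. At equal list length 1 of 6 members of this family passed as higher and 2 as lower. Cdk6, the G1 kinase bound by D cyclins, carried 0, 0, 1 and 2 distal peaks against 1, 6, 3 and 5 (-1.61 ± 0.216, limma adjusted p = 0.00369).

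Exclusive regions that touch an annotated gene start were a minority, 183 of the SOX2+ set and 35 of the SOX2- set. They covered starts of 144 protein-coding and 47 long non-coding RNA genes for SOX2+, and of 20 and 18 for SOX2-. The 250 bases before the start are printed here for 3 starts of each group, chosen from those whose region every library of one group and no library of the other had, to show what such a promoter looks like. They are RefSeq sequences of GRCm38.p6 (the mm10 coordinates), read 5′ to 3′ on the strand of the gene, and capitals mark a SOX motif (AACAAT) or an E-box (CAGCTG) on either strand. The SOX2+ starts belong to Phldb1, a cortical protein that binds phosphoinositides, with the window at chr9:44735199-44735448 on the minus strand, Ptpdc1, a phosphatase of cilia, at chr13:48593392-48593641 on the minus strand, and Neu4, a sialidase, at chr1:94020243-94020492 on the plus strand. The SOX2- starts belong to Rgs8, an inhibitor of G protein signalling in Purkinje cells, at chr1:153665423-153665672 on the plus strand, Tnfsf15, a ligand of the TNF family, at chr4:63745060-63745309 on the minus strand, and Prodh, the first enzyme of proline breakdown, at chr16:18089191-18089440 on the minus strand.
Phldb1: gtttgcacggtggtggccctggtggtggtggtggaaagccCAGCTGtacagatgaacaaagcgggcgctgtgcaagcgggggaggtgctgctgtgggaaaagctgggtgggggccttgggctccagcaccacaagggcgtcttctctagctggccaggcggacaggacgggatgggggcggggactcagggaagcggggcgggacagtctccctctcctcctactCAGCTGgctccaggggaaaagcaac
Ptpdc1: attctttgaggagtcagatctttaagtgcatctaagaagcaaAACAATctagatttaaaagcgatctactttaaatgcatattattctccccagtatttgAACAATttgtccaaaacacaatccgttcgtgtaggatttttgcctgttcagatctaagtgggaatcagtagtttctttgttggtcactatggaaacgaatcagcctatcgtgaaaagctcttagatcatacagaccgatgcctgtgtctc
Neu4: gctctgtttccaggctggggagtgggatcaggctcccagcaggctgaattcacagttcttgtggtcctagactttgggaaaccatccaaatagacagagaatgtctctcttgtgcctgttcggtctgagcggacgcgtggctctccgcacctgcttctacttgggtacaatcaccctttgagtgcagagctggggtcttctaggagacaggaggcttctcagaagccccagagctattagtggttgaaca
Rgs8: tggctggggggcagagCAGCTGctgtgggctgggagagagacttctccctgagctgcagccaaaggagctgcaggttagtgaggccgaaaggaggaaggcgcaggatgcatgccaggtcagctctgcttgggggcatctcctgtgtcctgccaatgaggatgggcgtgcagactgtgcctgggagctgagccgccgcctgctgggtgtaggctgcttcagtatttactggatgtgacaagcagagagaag
Tnfsf15: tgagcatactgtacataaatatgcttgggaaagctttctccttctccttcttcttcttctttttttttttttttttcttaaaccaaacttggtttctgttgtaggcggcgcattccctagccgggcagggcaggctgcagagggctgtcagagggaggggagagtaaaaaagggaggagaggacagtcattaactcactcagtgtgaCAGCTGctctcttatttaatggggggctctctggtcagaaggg
Prodh: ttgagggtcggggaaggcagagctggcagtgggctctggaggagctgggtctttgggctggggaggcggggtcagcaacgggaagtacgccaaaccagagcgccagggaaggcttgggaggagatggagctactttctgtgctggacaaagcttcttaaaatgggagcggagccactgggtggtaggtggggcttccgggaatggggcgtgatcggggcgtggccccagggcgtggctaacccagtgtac

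The Phldb1 window holds 2 E-boxes, the Ptpdc1 window 2 SOX motifs, and the Rgs8 and Tnfsf15 windows 1 E-box each. Those at Neu4 and Prodh hold neither motif. Over windows of 300 bases at all 210 SOX2+ starts the SOX motif occurred in 6.67%, against 2.44% of 41 SOX2- starts, 5.08% of the 13201 starts that lie in any region and 10.7% of the 32851 starts in the table. The E-box CAGCTG occurred in 22.4% of SOX2+ starts, 19.5% of SOX2- starts, 15.5% of starts in any region and 16.3% of all starts. In the same order, the NFI motif TTGGCA occurred in 20%, 34.1%, 10.8% and 14.1%, and the RFX motif GTTGCC in 9.52%, 26.8%, 13.2% and 12.5%. Median GC content was 59.5%, 56.3%, 62.3% and 52.7%. The SOX motif was thus more frequent at SOX2+ starts than at starts in any region and less frequent than over all starts, with no test. A match is a description of letters in a window, and several starts of 1 gene share sequence.

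MicroRNA hairpins within 10 kb of an exclusive region were looked up after the other results were known. Any region lay in that window for 521 of the 963 RefSeq hairpins, a SOX2+ exclusive region for 25 and a SOX2- exclusive one for 6. Mir9-2 lay near 2 SOX2+ exclusive regions, at chr13:83732214-83732508 and chr13:83741639-83742014, and Mir9-1 lay 9.55 kb from another; both give miR-9-5p, a microRNA of neural progenitors. Mir212 and Mir132 lay 2.72 and 3.02 kb from a region at chr11:75170237-75170667, which every SOX2+ library had, no SOX2- library had, and all 4 MKI67-sorted libraries had. Mir199b lay 0.115 kb from a region inside Dnm1. On the SOX2- side Mir204, inside the channel gene Trpm3, lay 2.73 kb from a region at chr19:22753397-22753941, and Mir140, inside Wwp2, lay 5.12 kb from another. The mature sequences are printed with the seed, bases 2 to 8, in capitals, since the seed decides which transcripts a microRNA pairs with.
mmu-miR-9-5p: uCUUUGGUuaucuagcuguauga
mmu-miR-132-3p: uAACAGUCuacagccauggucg
mmu-miR-212-3p: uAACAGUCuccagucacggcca
mmu-miR-199b-3p: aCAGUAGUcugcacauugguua
mmu-miR-204-5p: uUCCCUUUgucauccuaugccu
mmu-miR-140-3p: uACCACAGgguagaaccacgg

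The 3p microRNAs of Mir132 and Mir212 share the seed AACAGUC, and none of the other 4 shares a seed with another. Peaks near a hairpin say nothing of the level of its microRNA, which was not measured.

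Finally, regions that both groups had were compared by their standing. For the 5444 regions listed in all 8 libraries, the rank of the authors' fold enrichment within each library was tested with limma. Only 2 regions ranked higher in SOX2+ libraries (0.0367%) and 1 lower (0.0184%) at an adjusted p under 0.05, while 458 had an unadjusted p under 0.05 and 258 (4.74%) did not overlap between the groups. The first covers the start of Entpd7, which breaks down extracellular or lumenal nucleotides, at chr19:43689343-43690052. It stood in the top 1.40, 2.52, 3.99 and 2.31% in SOX2+ replicates 1 to 4 and 67.2, 47.2, 69.1 and 47.2% of the way down in SOX2- replicates 1 to 4 (limma adjusted p = 0.00136). The second lay 4.83 kb from Secisbp2l, a gene known for a part in oligodendrocyte maturation, at chr2:125731742-125732579, at 14.7, 3.01, 10.8 and 12.1% against 64.1, 71.3, 87.0 and 57.7% (limma adjusted p = 0.0122).

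The region that ranked lower in SOX2+ libraries was at the end of Tomm7, a subunit of the mitochondrial import pore, at chr5:23843847-23844419. It stood at 61.5, 94.2, 92.9 and 36.3% in SOX2+ libraries and 9.78, 2.24, 15.7 and 10.3% in SOX2- libraries (limma adjusted p = 0.0122). The groups did not overlap at any of these 3 regions. With 1 library left out the counts were 1 to 4 and 0 to 3: 1 region was called higher without SOX2+ replicate 2, SOX2- replicate 2 or SOX2- replicate 3 and 4 without SOX2+ replicate 3, and the call at Tomm7 was lost without SOX2+ replicate 2 or SOX2- replicate 2. Ranks by −log10 q in place of the fold called 21 regions higher and 14 lower, among them these 3. Of the next regions in order, none of which passed, those at Snx11, Cdkn2a and Tmco5 stood higher in every SOX2+ library than in any SOX2- library, and those at Vamp1, Dhrs7, Tmem123, Rpl9 and Rd3 stood lower. A region shared by all libraries at the end of Cacng2, over the start of the non-coding A730060N03Rik, had ranks of 5.82, 60.3, 67.7 and 18.1% in SOX2+ libraries and 64.7, 99.7, 87.9 and 97.5% in SOX2- libraries (limma adjusted p = 0.102), the opposite order to the distal peaks inside Cacng2.

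**Figure D5:**
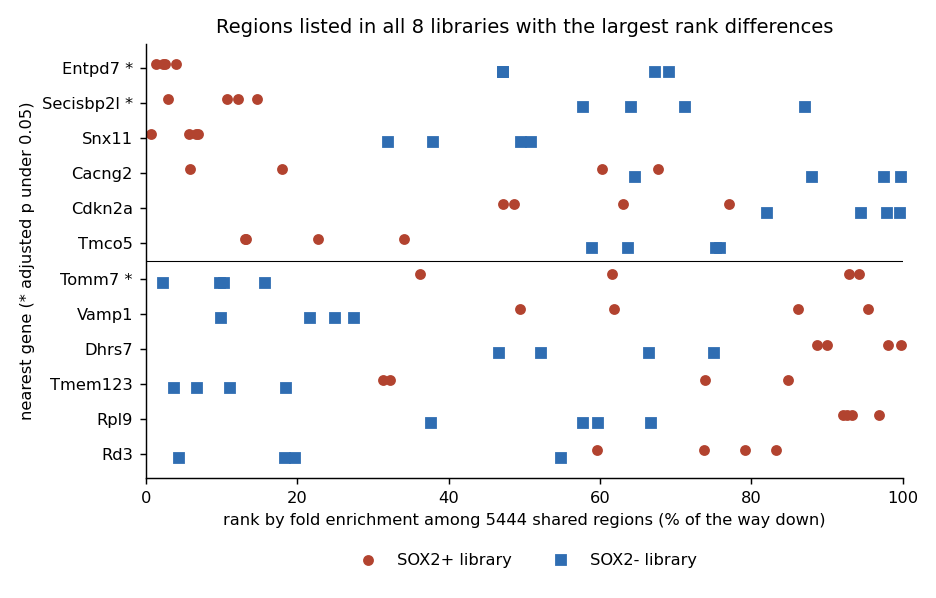
Rank by fold enrichment among the 5444 regions listed in all 8 libraries (percent of the way down the list, so that 0 is the strongest), for the 6 regions that ranked highest in SOX2+ relative to SOX2- libraries (above the line) and the 6 that ranked lowest (below it), 1 point per library. Asterisks mark the 3 regions with an adjusted p under 0.05, at Entpd7, Secisbp2l and Tomm7.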

How the data were processed

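Per the labels, 12 libraries of single-end ATAC-seq were made from sorted tumour cells. Alignment used Bowtie2 on mm10 and peak calling used MACS2, per the submitters' processing notes; versions, settings, duplicate handling and any shift for the transposase are not given in the sources used here. Each deposited list gives, per peak, a score, a fold over local background (a ratio), a −log10 p and a −log10 q, set within that list, so values were used only as ranks within a library. No read counts were used, so depth is unknown, and a missing peak can be a peak below the caller's threshold.

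Peaks overlapping by 1 bp or more in any of the 12 lists were merged. Positions came from the RefSeq table of GRCm38.p6 (21631 protein-coding genes), which shares its coordinates with mm10. Peaks per gene (nearest within 100 kb, in at least 2 libraries) were tested as log2(peaks + 1) in limma 3.58.1 (R 4.3.3), with 4 groups of libraries and log10 list length as a covariate, and Benjamini-Hochberg adjustment at 0.05. Fold changes on this scale understate changes at low counts. Genes with the same count in all 12 libraries were dropped. Ranks of shared regions were tested as normal scores in limma over the 8 libraries. Shares used exact two-sided permutation tests (scipy 1.17.1) over 70 assignments. The code was tested on simulated data. The members and lists were chosen with earlier results of these data known. Genes named were the 10 in each direction with the smallest adjusted p among those whose groups did not overlap in the distal test, up to 4 passing members per family, and the markers. Regions named were the 8 distal ones per group with the best mean rank. Some genes and 1 gene family that these rules name are not reported here. Starts and microRNAs, and genes singled out by their count of exclusive regions, were chosen after their values were seen.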

Additional observations from a re-analysis of the deposited data

Results flagged for a closer look

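Of 86 groups of 4 libraries examined, 2 held a library far from the others, where chance alone sets apart about 1 in 20. The share of peaks inside a gene at equal list length was 18.9% in SOX2+ replicate 4, against 18.2% in each of the other 3 SOX2+ libraries. Adgrb1, an adhesion G protein-coupled receptor, carried 1 distal peak in SOX2+ replicate 2, the shortest SOX2+ list, against 5 in each of the other 3.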

How the results depend on the processing

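Each count moved by over 1.5 times under at least 1 alternative below. The shares of peaks by position kept their direction under all of these alternatives. None passed after adjustment, but a share at the smallest possible p cannot pass it alone, so that outcome decides nothing. Over all peaks, genes higher in SOX2+ libraries (181) numbered 80 in the upper 50% of each list, 63 without the covariate, 106 with 8 libraries and 108 with constant genes kept. Genes lower (52) numbered 85 at equal list length, 13, 8, 31 and 19 under those 4 settings, and 103 with robust eBayes. Over distal peaks, genes higher (204) numbered 116 in the upper 50% and 123 without the covariate, and genes lower (109) numbered 55 and 14, 59 with genes of at least 1 library, and 24 with 8 libraries. Constant genes and robust eBayes were settings chosen after seeing the data. Exclusive regions (distal in brackets) numbered 664 (528) for SOX2+ and 393 (290) for SOX2- at equal list length, 725 (581) and 216 (182) in the upper 50%, and 711 (661) and 70 (63) at 4 of 4 against 0 of 4. Ranks by −log10 q called 21 shared regions higher and 14 lower. The cause of these shifts was not tested.

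With 1 library left out, all-peak counts were 78 to 195 higher and 14 to 92 lower, distal counts 122 to 344 and 16 to 455, and rank counts 1 to 4 and 0 to 3. Exclusive regions, whose rule becomes 3 of 3 in the group that loses a library and 0 of 3 where the other does, were 711 to 2382 (661 to 2013) for SOX2+ and 70 to 1136 (63 to 1053) for SOX2-. All-peak higher calls moved by over 1.5 times without SOX2- replicate 2 (101), SOX2+ replicate 1 (78) or 4 (115), or SOX2+/MKI67- replicate 1 (115) or 2 (114). All-peak lower calls did so without SOX2- replicate 1 (92), 2 (14) or 4 (23), SOX2+ replicate 1 (18) or 4 (34), or either SOX2+/MKI67- library (19 each). Distal lower calls did so without any library other than SOX2- replicate 1 (150): 17, 29 and 21 without SOX2- replicates 2, 3 and 4, 16, 455, 58 and 30 without SOX2+ replicates 1 to 4, 35 and 34 without the SOX2+/MKI67- libraries, and 54 and 56 without the SOX2+/MKI67+ libraries. Distal higher calls did so without SOX2+ replicate 1 (122), 2 (344) or 4 (126).

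The labels do not say what libraries of the same number share. Deviations of same-numbered libraries correlated at 0.07, 0.02, 0.03 and 0.13 at equal list length. At full length they correlated at -0.00689, 0.406, 0.0774 and -0.181. Not all were over 0.1, so the numbers were not taken as pairs. At equal list length 3 of 4 SOX2+ and 3 of 4 SOX2- libraries nonetheless correlated best with their own number, so pairing remains possible. With the number as a replicate block, limma called 0 genes in either direction over all peaks (1770 at an unadjusted p under 0.05) and over distal peaks (1622), and 4 shared regions higher and 1 lower.

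Of 142 tests of named genes, 4 reversed at equal list length: Klf10 (log2 difference -0.15, distal), Klf7 (-0.10), Foxn3 (0.75) and Gstm5 (-0.25). In the upper 50% of each list Klf7 (-0.18), Foxn3 (0.54), Gstm5 (-0.0735) and Kbtbd8 (-0.0463, distal) reversed. At equal list length 52 kept direction and call, 24 lost the call, 5 gained it, and the others gave no value there.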
